A study of Homo sapiens with 2 samples.

Results

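The S100 calcium-binding proteins were followed in PC3 cells, a human prostate cancer line that was derived from a metastasis in bone. The comparison was between 1 array of cells treated with fluphenazine at 10 µM, an antipsychotic of the phenothiazine class, and 1 array of cells treated with the solvent DMSO. How long the cells were treated is not stated in the labels. The S100 genes were chosen by name, with their differences between these same arrays already known, and every probe set annotated to one of them was taken. These were 13 probe sets for 10 genes, of 47693 probe sets and 18392 genes in all. No probe set named a listed gene together with another gene. Each value is a log2 signal, and each difference is the fluphenazine array minus the DMSO array. With 1 array per treatment there was no spread between cultures, so no difference below has an error or a test, and the values describe these 2 arrays.

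S100 proteins are small proteins with a pair of EF-hand calcium-binding loops that mostly work as dimers. Inside cells, calcium opens a surface on the dimer through which it holds partners such as annexins, myosin or p53. Several are also released and act on neighbouring cells, S100A8 and S100A9 as the metal-binding heterodimer calprotectin. Phenothiazines are known to bind calmodulin, another EF-hand protein, and trifluoperazine, a relative of fluphenazine, to bind the S100A4 protein. The arrays measured RNA and do not bear on that binding.

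One S100 gene stood out in these values. S100A8 was 1.84-fold lower with fluphenazine, while its partner S100A9 was 1.12-fold lower. S100P was 1.27-fold higher, and the log2 differences of the other 8 listed genes lay between -0.29 and 0.04. Of the 10 genes, 8 were lower, where 50.3% of all 18392 genes were lower. S100A8 was the only one to reach 1.5-fold in the lower direction, which 0.859% of all genes did, and none reached it in the higher direction, which 0.701% did. The listed genes had a median of -0.12, and without S100A8 of -0.09. Because the genes were listed with these arrays' results known, the counts describe the list and carry no further weight.

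**Figure D1:**
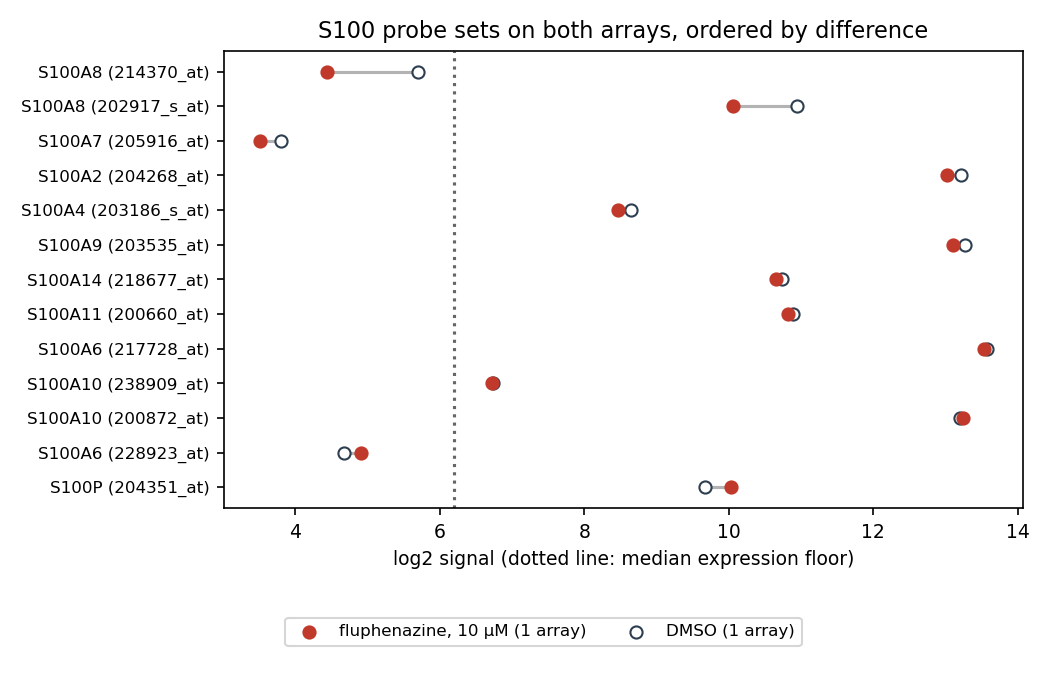
Log2 signal (horizontal axis) of the 13 S100 probe sets, 1 row each, on the fluphenazine array (filled points) and the DMSO array (open points), ordered by their difference. Both S100A8 probe sets show the widest gaps, at -1.27 and -0.88, S100P is shifted the other way by 0.35, and the dotted line marks the expression floor of 6.19.

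The region before the start site was read for all 10 listed genes from RefSeq on GRCh38.p14, because it is a feature that the choice of genes did not use. The 80 bases before the start are shown for 5 genes that carry TATAAA, the core of a TATA box, and for S100A2, which carries the AP-1 motif TGACTCA. Capitals mark the motif, and each sequence runs 5′ to 3′ on the strand of its gene.
S100A8: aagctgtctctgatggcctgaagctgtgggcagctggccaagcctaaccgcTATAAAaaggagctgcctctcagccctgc
S100A9: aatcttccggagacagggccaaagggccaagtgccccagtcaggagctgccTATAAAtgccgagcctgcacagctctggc
S100A7: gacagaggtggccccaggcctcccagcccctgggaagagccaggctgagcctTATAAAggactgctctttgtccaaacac
S100A4: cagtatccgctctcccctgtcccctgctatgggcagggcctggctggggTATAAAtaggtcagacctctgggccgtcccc
S100P: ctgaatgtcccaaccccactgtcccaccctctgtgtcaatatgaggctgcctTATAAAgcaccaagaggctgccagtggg
S100A2: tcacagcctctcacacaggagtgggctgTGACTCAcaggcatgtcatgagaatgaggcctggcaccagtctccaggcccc

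These stretches lie at chr1:153391074-153391153 on the minus strand for S100A8, chr1:153357774-153357853 on the plus strand for S100A9 and chr1:153460652-153460731 on the minus strand for S100A7. That of S100A4 is at chr1:153545807-153545886 on the minus strand, that of S100P at chr4:6693798-6693877 on the plus strand, and that of S100A2 at chr1:153565845-153565924 on the minus strand. S100A8 has windows for 3 starts in the table. The same TATAAA stands at -29 from the start shown and at -126 from another, and the window of the remaining start does not hold it. In the stretches printed, TATAAA began 28 to 31 bases before the start in all 5 genes, on the strand of the gene. Anywhere in a window and on either strand, 3819 of 27305 genes hold it. Of 27305 genes with a window in the table, 2.80% had TATAAA beginning between 35 and 20 bases before a start, a range chosen after the matches were seen. Among the S100 genes outside the list, 3 of 9 with a window did.

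The listed genes with this TATAAA had differences from -0.88 to 0.35, a span that holds both S100A8 and S100P. The 5 without it ranged from -0.20 to 0.04. In the S100 genes outside the list the ranges were the other way round. They ran from -0.14 to 0.00 in 3 genes with this TATAAA and from -0.82 to 0.24 in 5 measured genes without it. Both ends of the latter range, S100A12 and S100A5, lay under the expression floor of 6.19, as did S100A7A and S100G among the 3. A match of letters is a description, not a site. The AP-1 motif, TGAGTCA or its reverse complement TGACTCA, was found before S100A2 alone among the 10 listed genes, and 6.05% of the 27305 genes have it in a window of 250 bases before to 50 after a start. The loose C/EBP pattern TTNCNNAA, on either strand, was found at S100A6, S100A8, S100A9, S100A11 and S100P, which makes 5 of 10, and 41.8% of all genes have it. The strict C/EBP pattern TTGCGCAA, which the loose one includes, and the STAT pattern TTCNNNGAA, on either strand, were in none of the 13 windows of the listed genes. They were present for 0.172% and 9.38% of all genes.

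The secreted members came apart in size. S100A8 had a log2 signal of 10.05 with fluphenazine and 10.94 with DMSO by the probe set 202917_s_at, a difference of -0.88. A second probe set of S100A8, 214370_at, gave 4.43 with fluphenazine and 5.70 with DMSO, a difference of -1.27 or 2.41-fold lower. Both probe sets were thus lower on the fluphenazine array, although the second lay under the floor of 6.19 on both. The floor is the median, over genes, of the higher of a gene's 2 values, and 9196 genes reached it. These 2 were the only ones of the 13 S100 probe sets to reach 1.5-fold lower, where 0.953% of all probe sets naming 1 gene did.

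S100A8 held nearly the lowest place among genes at or above the floor, with 4 of 9196 lower by more. Genes of like signal give a closer frame. Of the 965 genes, itself included, whose mean lay within 0.5 of that of S100A8, none was lower by more, and their differences had a robust SD of 0.14. Among the 1239 probe sets within the same distance of 202917_s_at, 1 was at least 1.5-fold lower, a share of 0.0807%, and that 1 is the S100A8 probe set itself. Around 214370_at differences were wider, with 1.71% of 4730 probe sets at least 1.5-fold lower.

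S100A9, the other subunit of calprotectin, had 13.11 with fluphenazine and 13.27 with DMSO, a difference of -0.16. The difference of S100A8 exceeded that of S100A9 by 0.73 on the log2 scale, so the signals of the calprotectin subunits differed unequally. Of the 109 genes within 0.5 of the mean signal of S100A9, 6 were lower by more. Their robust SD was 0.07, against 0.14 for the genes near S100A8. The part of signal level in the unequal differences of S100A8 and S100A9 was not tested. S100A7 (psoriasin), an antimicrobial protein of inflamed skin, had 3.51 with fluphenazine and 3.80 with DMSO. It was the 1 listed gene under the floor, and its difference of -0.29 was exceeded by 305 of 2827 genes of like signal. The other 9 listed genes had both values above the floor, so none reached it through 1 array alone.

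**Figure D2:**
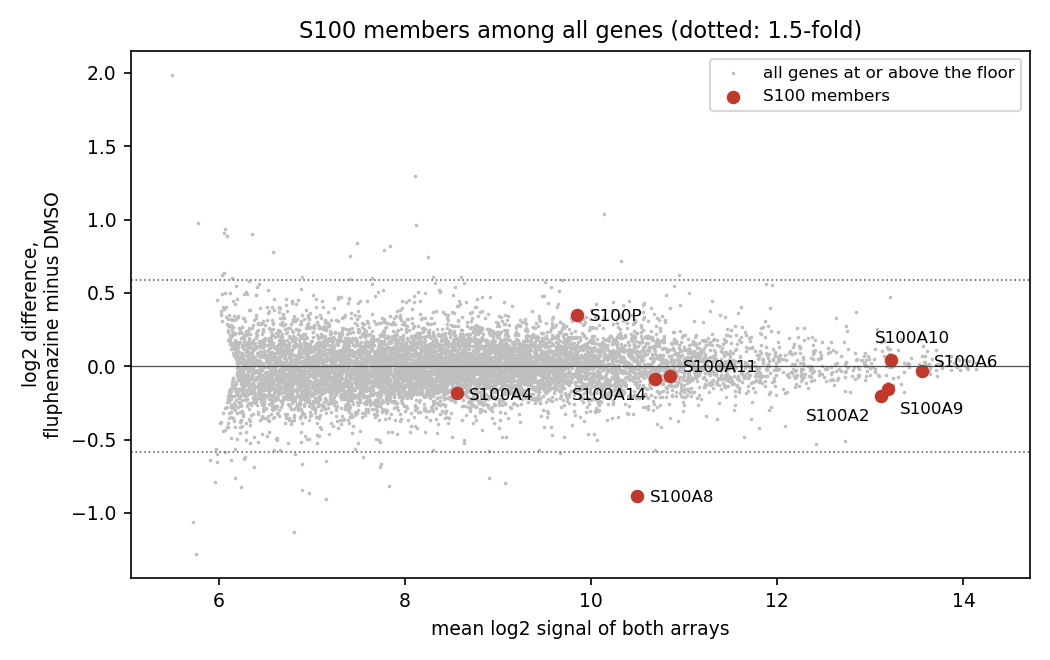
Log2 difference, fluphenazine minus DMSO (vertical axis), against the mean log2 signal of both arrays for all 9196 genes at or above the floor (grey) and the 9 listed S100 genes among them (red). S100A8 lies at -0.88, below the dotted 1.5-fold line and below the grey points of like signal, while S100P at 0.35 is the only listed gene well above 0.

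S100P, which binds the membrane linker ezrin and the receptor RAGE and is produced by several carcinomas, lay on the other side. Its signal was 10.02 with fluphenazine and 9.68 with DMSO, a difference of 0.35. Its gene lies on chromosome 4, and those of the other 9 lie on chromosome 1. Of 1383 genes of like signal, 19 were higher by more, and of all genes at or above the floor 182 were. S100A8 and S100P differed from each other in response by 1.23 on the log2 scale.

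The epithelial members were slightly lower. S100A2, a gene of basal epithelial cells and a target of p63, had 13.01 with fluphenazine and 13.22 with DMSO, a difference of -0.20. Of 115 genes of like signal only 2 were lower by more, with a robust SD of 0.07 among them. S100A14, expressed in epithelia, had 10.65 with fluphenazine and 10.73 with DMSO, a difference of -0.09, and 203 of 884 genes of like signal were lower by more. The difference of S100A2 is thus near the edge for bright genes, whereas that of S100A14 is inside the bulk.

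The members known mainly for work inside the cell had small differences on these arrays. S100A4, which disassembles filaments of non-muscle myosin and is linked to metastasis, had 8.47 with fluphenazine and 8.65 with DMSO, a difference of -0.18. Of 2070 genes of like signal, 201 were lower by more. S100A11, a partner of annexin A1, had 10.82 with fluphenazine and 10.89 with DMSO, a difference of -0.07. S100A6 (calcyclin) had 13.53 with fluphenazine and 13.57 with DMSO by 217728_at, a difference of -0.03. Its other probe set, 228923_at, was under the floor and pointed the other way, at 4.91 with fluphenazine and 4.68 with DMSO, a difference of 0.24. S100A10 (p11), which has lost calcium binding and forms a fixed complex with annexin A2, had 13.25 with fluphenazine and 13.20 with DMSO by 200872_at. Its second probe set, 238909_at, had 6.73 on both arrays, so both probe sets of S100A10 gave near 0, at 0.04 and -0.01.

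Differences of about 0.2 have to be read beside the controls of the same arrays. The 24 probe sets of bacterial poly-A spike-ins, of a kind added to RNA before labelling, read the dap, lys, phe and thr transcripts repeatedly. All 24 had lower values with fluphenazine, with a median difference of -0.22. That is about the size of the differences of S100A2, S100A4 and S100A9, and its part in them was not tested. The control probe sets for ACTB differed by 0.00 at the 3′ end, -0.17 in the middle and -0.13 at the 5′ end, and those for GAPDH by 0.03, -0.02 and 0.06. All genes at or above the floor had a median of -0.01. Probe sets of one gene, where they reached the floor, differed among themselves with a pooled SD of 0.13, which contains no variation between cultures.

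Along chromosome 1 the differences of the S100 genes were not even. In the order of the chromosome S100A10 and S100A11 come first, at 0.04 and -0.07, then S100A9 at -0.16, S100A12 at -0.82, S100A8 at -0.88, S100A7A at 0.00 and S100A7 at -0.29. S100A12, a further calgranulin of neutrophils that was named here after its values were seen, had 4.03 with fluphenazine and 4.85 with DMSO, both under the floor. The 2 largest negative differences of the family thus belong to adjacent S100 genes, of which S100A12 was under the floor. At least 1.5-fold lower were 0.859% of all genes and 0.294% of those at the floor, so such differences were more frequent under it. The annotated spans of S100A8 and S100A7A in RefSeq overlap, and the 2 probe sets of S100A7A, under the floor, gave 0.00 and 0.24. Next come S100A6, S100A5, S100A4, S100A3, S100A2, S100A16, S100A14, S100A13 and S100A1, between -0.37 and 0.24.

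Of the 10 S100 genes outside the list, 9 were measured, 7 of them lower and 2 higher (S100A5 and S100A7A). Over all 18392 genes 50.3% were lower. Of the 9 measured, 3 reached the floor and 6 were under it. S100A3, known from hair cuticle, had 6.06 with fluphenazine and 6.43 with DMSO, a difference of -0.37, and it reached the floor through the DMSO array alone. S100A13, which takes part in the release of fibroblast growth factor 1, had 11.36 with fluphenazine and 11.50 with DMSO, a difference of -0.14. S100A16 had 11.55 with fluphenazine and 11.56 with DMSO, and its difference rounded to 0.00. The proteins that carry an S100-type domain fused to a repeat region had no measured gene at the floor, with TCHH and CRNN both under it.

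**Figure D3:**
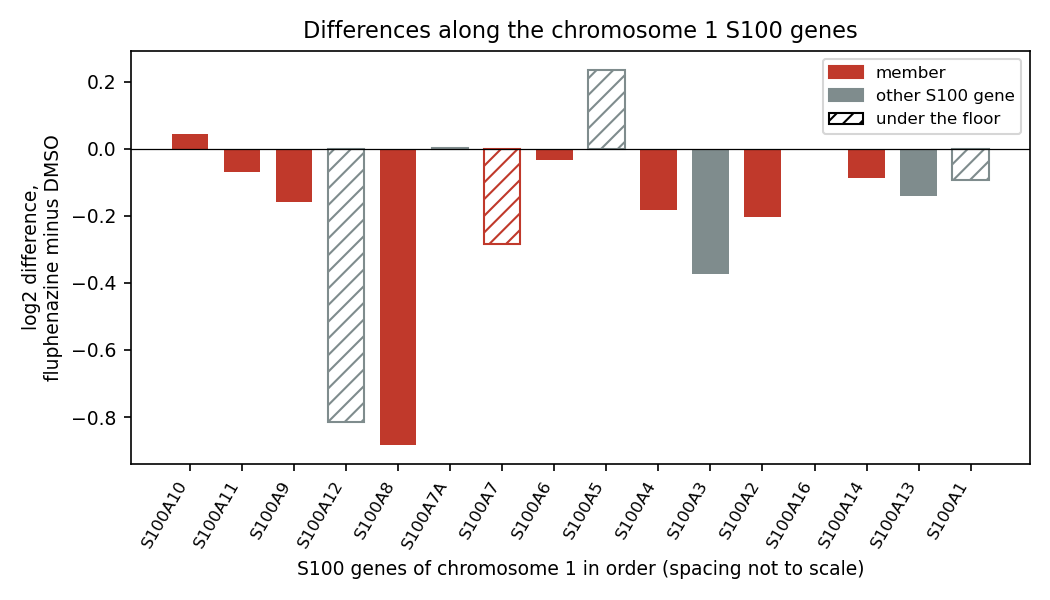
Log2 difference, fluphenazine minus DMSO (vertical axis), for the S100 genes of chromosome 1 in their order (spacing not to scale). Listed genes are red, other S100 genes grey, and hatched bars are genes under the floor. S100A12 at -0.82, under the floor, and S100A8 at -0.88 stand side by side. S100A5 at 0.24, also under the floor, is the largest in the other direction.

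Among the receptors through which released S100 proteins act, 4 of 7 measured genes reached the floor and their median was 0.06, with 1 lower and 3 higher. BSG (basigin), a receptor for S100A9, was at -0.23 and MCAM at 0.04, while NPTN, a receptor for S100A8, was at 0.07 and ALCAM at 0.15. AGER, which encodes RAGE, had 4.72 with fluphenazine and 4.87 with DMSO. TLR4 had 3.87 with fluphenazine and 4.05 with DMSO. Both of these best known receptors were thus under the floor on both arrays.

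Partners inside the cell had a median of 0.00 over 15 genes at the floor, with 7 lower and 8 higher, and none reached 1.5-fold in either direction. The lowest were STIP1, a co-chaperone whose binding to heat shock proteins S100 proteins affect, at -0.27, and FABP5, a fatty acid carrier that binds S100A7, at -0.18. The highest were PPFIBP1 (liprin beta), a partner of S100A4, at 0.19 and the giant scaffold AHNAK at 0.13. Outside that rule, ANXA2, the partner of S100A10, had 13.42 with fluphenazine and 13.40 with DMSO. Its difference of 0.02 lay 0.02 from that of S100A10.

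Other EF-hand proteins at the floor showed neither a shared direction nor a large value. Over 23 genes at the floor the median was -0.03, with 13 lower, 10 higher and none at 1.5-fold. The lowest were PDCD6, a calcium sensor of membrane repair, at -0.16 and the calpain small subunit CAPNS1 at -0.14. The highest were NUCB2 at 0.23 and ACTN1 (alpha-actinin) at 0.22. Under the floor, TESC (tescalcin) was 1.55-fold higher, with 4.14 with fluphenazine and 3.52 with DMSO. The others under the floor went both ways, with EFHD1 at 0.27, NUCB1 at 0.06, CALML5 at -0.24 and CALML3 at -0.35. With no floor, 0.701% of all genes were at least 1.5-fold higher. For comparison, 51.8% of the 9196 genes at the floor were lower, 0.294% were at least 1.5-fold lower and 0.283% at least 1.5-fold higher.

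Squamous and skin inflammation genes, which keratinocytes express together with S100A8 and S100A9, had 6 of 19 measured members at the floor, 5 lower and 1 higher, with a median of -0.14. KLK5 reached the floor through the DMSO array alone, and the 5 genes with both values at the floor had a median of -0.08. Over all 19 the median was -0.04. SERPINB3, a squamous-cell serpin, had 6.54 with fluphenazine and 7.40 with DMSO, a difference of -0.87, and was the 1 gene of the list at the floor to reach 1.5-fold. Its close relative SERPINB4, under the floor, had 4.39 with fluphenazine and 5.51 with DMSO, a difference of -1.12. It was the lowest of 13 genes of the list under the floor. The others there went both ways, from -0.25 for KLK7 to 0.36 for CDSN. With no floor, 0.859% of all genes were at least 1.5-fold lower. The peptidase KLK5 was at -0.49. At the upper end the siderophore-binding protein LCN2 was at -0.04 and the desmosomal DSC2 at 0.04. SERPINB3 thus stood apart from the other 4 genes with both values at the floor, which lay between -0.20 and 0.04.

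Transcription factors known to act on S100A8 or S100A9 had a median of 0.10 over 8 genes at the floor, with 2 lower and 6 higher. KLF4, an epithelial differentiation factor, had 8.77 with fluphenazine and 8.36 with DMSO, a difference of 0.41. NFKB1 was at 0.25, CEBPD at -0.20 and JUN at -0.10. None of these 8 reached 1.5-fold in either direction. Under the floor on both arrays, STAT3 was 2.32-fold higher by its probe set used here, with 5.39 with fluphenazine and 4.18 with DMSO. At least 1.5-fold higher, with no floor, were 0.701% of all genes. The other regulators under the floor went both ways, with SPI1 at 0.28, CEBPA at -0.22 and FOS at -0.37. Both S100A8 and S100A9 were lower while 6 of the 8 regulators at the floor were higher, as were 4429 of all 9196 genes at the floor. The smallest differences among the 6 were those of CEBPB at 0.05 and RELA at 0.09. No relation between the regulators and the S100 genes can be tested with 2 arrays.

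**Figure D4:**
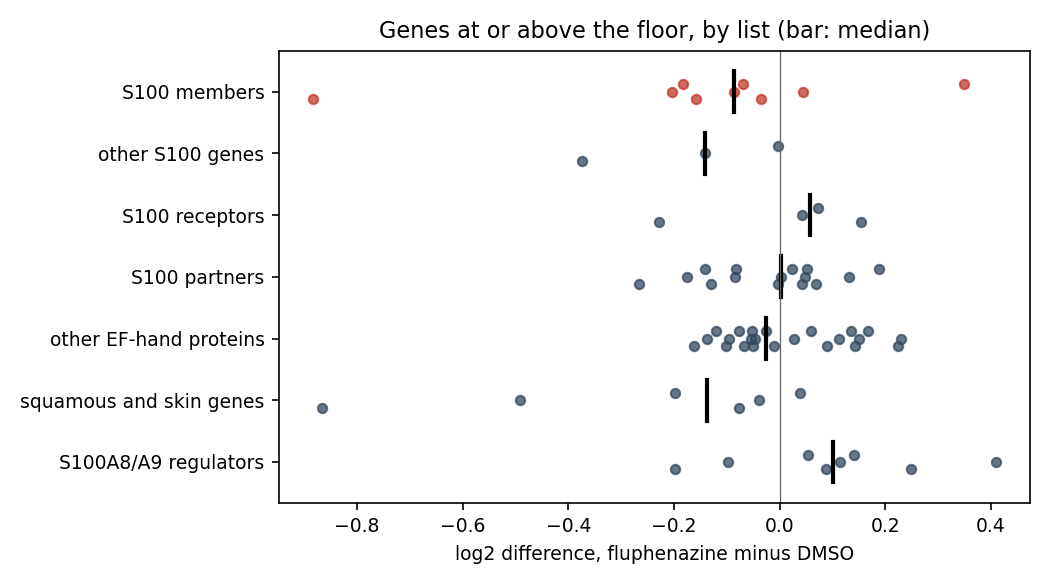
Log2 difference, fluphenazine minus DMSO (horizontal axis), of each gene at or above the floor (points, staggered only for legibility) in the 9 listed S100 genes and 6 further lists, with the median as a bar. S100A8 at -0.88 and SERPINB3 at -0.87 are the lowest points, and partners and other EF-hand proteins stay between -0.27 and 0.23.

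S100A8 and S100A9 are best known from neutrophils and monocytes, so markers of those cells were examined. None of 12 measured myeloid markers reached the floor. The highest value was that of CSF3R, 5.29 with fluphenazine and 5.30 with DMSO, and the summed linear signal of the 12 was 241.8 with fluphenazine and 250.1 with DMSO. Among 6 fibroblast markers COL1A1 alone reached the floor, at 8.33 on both arrays, and their summed linear signal was 393.9 with fluphenazine and 384.1 with DMSO. The epithelial markers KRT8, KRT18, KRT19 and EPCAM, and VIM, were all at the floor. KRT8 was at -0.42 and VIM at -0.48, while KRT18 was at -0.13, KRT19 at -0.08 and EPCAM at 0.07. KLK2, of androgen-driven luminal cells, and CTNNA1, which PC3 cells are known to lack, were under the floor. The prostate antigen KLK3 had 1 of its 3 probe sets at the floor, with 6.90 with fluphenazine and 6.93 with DMSO.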

How the data were processed

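RNA of PC3 cells was hybridised to 2 Affymetrix arrays, 1 per treatment, and whether an array holds 1 culture or a pool is not stated. Per the labels, a whole-transcript kit made the labelled cDNA, while the probe sets are of a 3′ expression array, and how the kit was used with it is not stated. RMA, Transcriptome Analysis Console 3.1 and Affymetrix Expression Console 1.4 are named in the submitters' processing notes, without their roles. The values deposited by the authors are taken as log2 signals of probe sets from their range, 1.60 to 14.28. Sorted, the 2 columns differed by at most 0.13, so a difference shows a gene relative to the others, not total RNA. The sources used here give no genome build for them.

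Genes came from the platform annotation of 2016, and only the 37151 probe sets naming 1 gene were used. The gene identifier gave a current symbol for 18353 of 18392 genes. A gene took its probe set with the highest mean of both arrays. The floor of 6.19 is a rank, not a detection call. The listed genes, the 11 other lists and the rule for named genes were chosen with earlier results of these data known. The rule named all listed genes, other S100 genes at the floor, and the 2 highest and 2 lowest genes at the floor of each other list. Marker genes, S100A12, ANXA2 and some genes under the floor were named besides, after their values were seen. Some listed genes are not analysed here. A comparison of protein sequences was planned and is not given.

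With 1 array per group no test, SE or p-value was computed, and the number of arrays limits the precision. Genes of like signal are those whose mean of both arrays lay within 0.5 on the log2 scale. The choice of a probe set per gene and the 1.5-fold threshold were tested on simulated data, and the other steps were not. The simulated noise was set below the spread of the genes at or above the floor. Python 3.11.15, numpy 2.4.6, pandas 2.3.3, statsmodels 0.14.6 and limma 3.58.1 in R 4.3.3 were used. Alternatives were 3 scalings, the mean or median of a gene's probe sets, other probe set filters, the floor, and other fold thresholds.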

Additional observations from a re-analysis of the deposited data

How the results depend on the processing

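No replicate could be left out, and no paired analysis was possible because each group has 1 array. As a yardstick for a shift, a pooled SD was used in place of a spread between replicates. It was 0.13, between probe sets of one gene with a value at or above the floor. Under quantile normalization, median centring and subtraction of an intensity trend, all 10 listed genes kept their sign and moved by less than this. The choice of probe set mattered for 2 genes, each through a second probe set under the floor, which the yardstick does not cover. The lowest difference of the list, that of S100A8, was -1.08 with the mean and with the median of its probe sets, and -1.27 without probe sets of the _s_at and _x_at kind, against -0.88 as reported. S100A6 turned to 0.10 with the mean or median of its probe sets. S100A4 has only an _s_at probe set and gave no value without that kind. At 2-fold, 0 of the 10 genes and 1 of the 13 probe sets were lower, and without _s_at and _x_at probe sets 1 probe set was at least 1.5-fold lower. The medians of 5 other lists (other S100 genes, partners, squamous genes, other EF-hand proteins and regulators) moved by less than the yardstick under quantile normalization, with averaged probe sets, with no floor and, an alternative chosen after seeing the data, with both values at the floor, although that of the partners turned to -0.06 with averaged probe sets. Adding probe sets that name several genes was not run, since none named a listed gene. Background correction could not be varied without probe intensities.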
